A study of Rattus norvegicus with 16 samples.

Results

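The neurotrophins and their receptors, in cultured rat hippocampal neurons exposed to hydroxyurea, are described here through 8 genes: the secreted ligands Bdnf, Ntf3 and Gdnf, the secreted neuropeptide precursor Vgf, the receptor tyrosine kinases Ntrk2 and Ntrk3, the p75 receptor Ngfr, and the sorting receptor Sort1. A gene was taken with every array probe whose RefSeq record maps to it, which gave 12 probes for the 8 genes, of 30367 probes on the array and 15715 genes with a matched probe. The RNA came from primary cultures of embryonic day 18 Sprague-Dawley rat hippocampus, kept for 6 days or more, and was hybridised to 1-colour Agilent rat arrays. Hydroxyurea, an inhibitor of ribonucleotide reductase, was given at 5 µM. Exposure lasted 2, 6, 12 or 24 h in the 4 treated groups, a further group had no drug, and each of the 5 groups has 3 replicates. Before the drug was added, the serum-free Neurobasal medium was exchanged for one whose B27 supplement lacks antioxidants. The labels do not say whether or when the untreated cultures had this exchange, so the drug and the time in that medium cannot be told apart. They also do not say that replicates were separate cultures, so every p-value here rests on a spread between samples that could be technical alone.

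Neurotrophins are made as precursors that are cut to the mature form. The mature form of BDNF acts mainly through TrkB, the product of Ntrk2, and that of NT-3 mainly through TrkC, the product of Ntrk3, whereas the uncut precursors bind p75 together with sortilin, the product of Sort1. In hippocampal neurons BDNF and TrkB are known for supporting survival and synaptic plasticity. Bdnf and Vgf are both transcribed in response to neuronal activity through the factor CREB, and GDNF signals through a separate receptor complex that contains Ret.

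The letters that CREB recognises, the cAMP response element TGACGTCA, are the textbook link of Bdnf and Vgf to activity. They were searched for on both strands in the 250 bases before each start that a RefSeq promoter set holds for these genes. RefSeq promoters of the rat build GRCr8 were matched for 5 of the 8 genes, with 12 starts. The annotated genes of Vgf and Sort1 reach further upstream than the starts held for them, so any start there was not searched. The full element stood before the start held for Vgf and before no other of these starts, against 1.59% of the 33469 rat promoters in the same set. The half-site TGACG, which the full element contains, also stood before 1 of the 6 Bdnf starts and before the Gdnf start, against 18.2% of all promoters. The stretches are printed with the match in capitals, on the strand of the gene, where the half-site reads CGTCA in both. That of Vgf is chr12:25277067-25277146 on the minus strand, and those of Bdnf and Gdnf are chr3:116637787-116637857 and chr2:58621242-58621318 on the plus strand.
Vgf: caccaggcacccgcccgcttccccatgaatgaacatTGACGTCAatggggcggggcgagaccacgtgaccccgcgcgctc
Bdnf: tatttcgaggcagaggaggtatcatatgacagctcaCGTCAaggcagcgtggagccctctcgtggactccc
Gdnf: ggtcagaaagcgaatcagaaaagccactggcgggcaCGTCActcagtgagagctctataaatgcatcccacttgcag
A match describes these letters and is not a measured binding site.

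Levels are given as log2 of the processed signal minus the array's 75th percentile, so that 0 is the brightness of that percentile on each array, and they compare samples for 1 probe and not probes with each other. In bulk cultures fewer cells of a type and less RNA per cell cannot be told apart. The 16 arrays, which hold untreated replicate 1 on both of the 2 slides, had between 64.6% and 70.4% of probes well above background and 0 saturated spots. On 2 arrays the repeated spots of a probe were uneven, with a median coefficient of variation of 21.5% for 12 h replicate 3 and 10.6% for the first array of untreated replicate 1, against at most 6.82% on the other 14. The array of 12 h replicate 3 also lay far from the rest on the leading principal component (29.7% of variance). Of the neuron markers, 10 of 12 had a probe and all 10 were well above background on every array, with a summed log2 level between 7.09 and 7.44 over the samples. Glial markers were present too: 9 of 10 astrocyte markers were well above background on every array, and their summed level was 6.82 to 7.12 in untreated samples, 7.18 to 7.25 at 2 h, 7.15 to 7.21 at 6 h, 7.21 to 7.47 at 12 h and 7.12 to 7.30 at 24 h. In this sum every treated sample lay above all untreated ones, by little at 24 h (lowest 7.118, against an untreated highest of 7.117). Of the 9 astrocyte markers tested, 5, 7, 9 and 7 were higher than untreated at 2, 6, 12 and 24 h. None of the 9 passed an adjusted p of 0.05 at any time. Of the oligodendrocyte lineage markers, 9 of 10 were well above background on every array, with a summed level between 4.77 and 5.34 over the samples. Of the meningeal fibroblast and pericyte markers 5 of 8 were so, with a summed level between 0.43 and 1.70. Of the microglia markers, 5 of 10 were well above background on every array, with Itgam and Ptprc so on none, and of the endothelial markers 4 of 8, with Cldn5, Flt1, Tek and Emcn so on none. The part of any of these in the values below was not tested.

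None of the 8 genes differed between hydroxyurea and untreated cultures at any time by a margin that passed the test. At 2, 6, 12 and 24 h, limma with Benjamini-Hochberg adjustment over 18110 features called 0 of 8, and called 0% of all features in each of these comparisons. At an unadjusted p under 0.05 it held 216, 134, 419 and 156 features at these times, and 0 of the 8 genes at any of them. Of the 32 differences (8 genes at 4 times), 28 were smaller than 0.25 on the log2 scale, and they ranged from -0.68 to 0.12. All 32 of the 95% intervals held 0, and 29 of them lay within 1 log2 unit of 0 on either side. The mean of the 4 times against untreated, 24 h against 2 h, and the F test among the 4 times likewise called 0 of 8 genes and 0% of features, with 305, 137 and 197 features at an unadjusted p under 0.05 and none of the 8 genes among them. In all 7 comparisons these counts are below 0.05 of the 18110 features, the share that evenly spread p-values would give. The p-values thus ran high, for a reason that was not tested, and a count of 0 is weak evidence that nothing changed. Counting instead the features whose 3 treated values all lay on 1 side of the 3 untreated values, 0 of the 8 genes did so at 2 h against 6.35% of all features, 0 at 6 h against 3.84%, 0 at 12 h against 5.06% and 0 at 24 h against 2.94%. The counts over the 8 genes are a description, because Gdnf entered the fit only through the untreated group, where it was brightest.

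**Figure D1:**
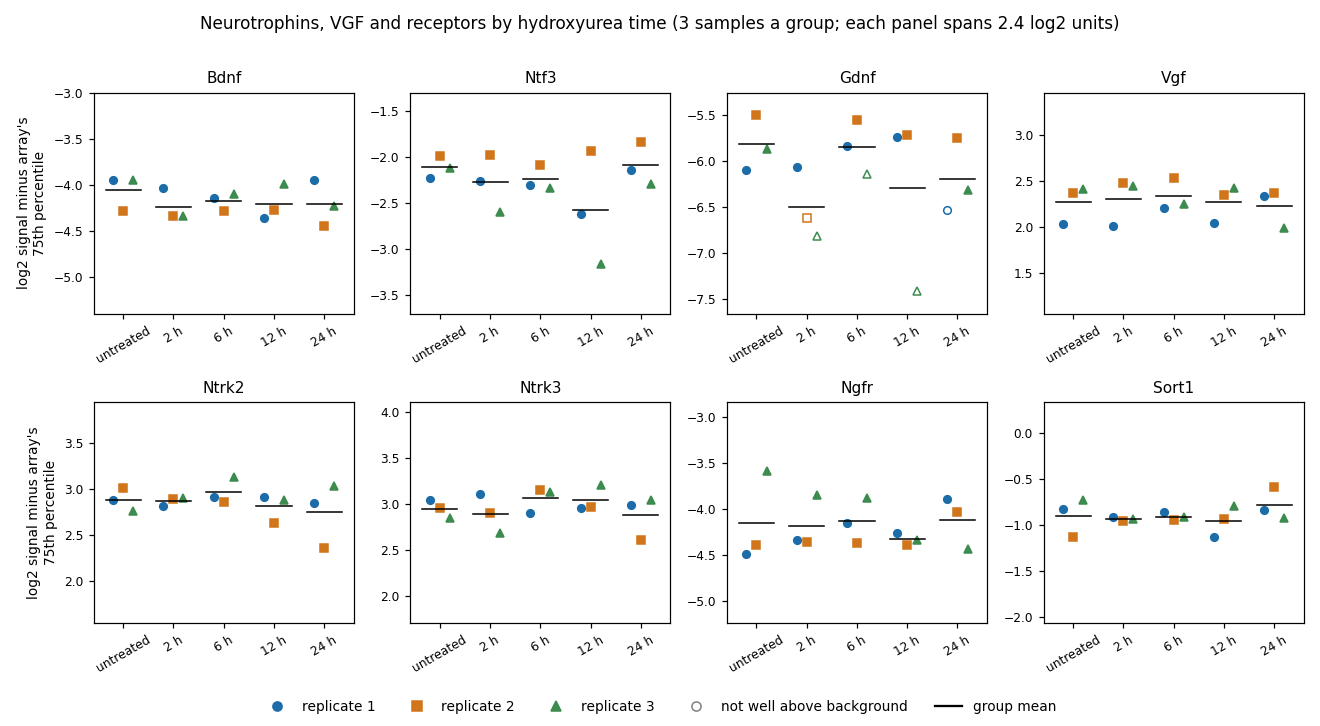
Level of each of the 8 genes in each sample by time on hydroxyurea, as log2 of the processed signal minus the array's 75th percentile; all panels span the same range, points are samples by replicate number, open points were not well above background, and bars are means of 3 samples. Group ranges overlap in every panel, and the lowest points of Ntf3 (-3.16) and Gdnf (-7.41) both belong to 12 h replicate 3.

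Among the ligands, Bdnf was measured by 1 probe (NM_012513), with 10 spots on each array, all 16 arrays well above background. Replicates 1, 2 and 3 of the untreated group gave -3.94, -4.28 and -3.94. At 2 h Bdnf was -4.03, -4.33 and -4.34, and at 6 h -4.14, -4.29 and -4.10. At 12 h it was -4.35, -4.27 and -3.99, and at 24 h -3.94, -4.45 and -4.23. All 5 groups overlapped, the untreated mean of -4.06 ± 0.19 (SD, n = 3) was the highest and the 2 h mean of -4.23 ± 0.18 the lowest. The log2 differences from untreated were -0.18, -0.12, -0.15 and -0.15 at 2, 6, 12 and 24 h, each with an SE of 0.15. The 2 h interval, -0.51 to 0.15, spans folds of 0.702 to 1.11. Over the 4 times the difference was -0.15, with 5 of 12 treated samples below all 3 untreated ones and 0 above them (exact permutation test over the 455 splits, two-sided p = 0.196).

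Ntf3, which encodes NT-3, had 1 probe (NM_031073), well above background on all 16 arrays. Its level in untreated replicates 1 to 3 was -2.23, -2.00 and -2.12. The 2 h values for Ntf3 were -2.26, -1.98 and -2.60, and the 6 h values were -2.30, -2.09 and -2.33. The 12 h values were -2.62, -1.94 and -3.16, the widest spread of any group, and the 24 h values -2.15, -1.84 and -2.29. Replicate 2 was the highest sample of all 5 groups, and every group overlapped the untreated range. The log2 differences were -0.16, -0.13, -0.46 and 0.02 at the 4 times, with an SE of 0.25. The 12 h difference had an unadjusted p of 0.0856 and an adjusted p of 0.997 in limma, and was larger in size than 95% of all features. Without 12 h replicate 3, whose repeated spots were uneven, it was -0.16, and without 12 h replicate 2 it was -0.77 (adjusted p = 0.542). Within slide 1, which holds 12 h replicate 1 alone of that group, it was -0.50. Within slide 2, which holds 12 h replicates 2 and 3, it was -0.38. Untreated replicate 1 is on both slides, so these 2 values are not independent. The spread of Ntf3 between replicates, a residual SD of 0.33, exceeded that of 84.0% of features, whose median was 0.20. The mean over all 12 treated samples was 0.18 log2 units lower (log2 difference -0.18, exact permutation p = 0.411).

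Gdnf had 1 probe (NM_019139) and was the only one of the 8 not well above background throughout: it was so on 11 of 16 arrays, which hold 3 of 3 untreated, 1 of 3 2 h, and 2 of 3 samples at each of 6, 12 and 24 h. Untreated replicates 1 to 3 gave -6.10, -5.50 and -5.86, and the 2 h samples gave -6.07, -6.61 and -6.81. The 6 h samples gave -5.83, -5.56 and -6.13, the 12 h samples -5.73, -5.72 and -7.41, and the 24 h samples -6.53, -5.74 and -6.32. The 2 h range touched the untreated range by 1 sample, 2 h replicate 1, and the 12 h group held 2 samples inside the untreated range and the lowest of all 15. The log2 differences for Gdnf from untreated were -0.68, -0.02, -0.47 and -0.38 at the 4 times. They are given as a description with no test, because Gdnf was kept only through its untreated samples and 5 of the 12 treated samples were not well above background. Without 12 h replicate 3 the 12 h difference was 0.09, and with normexp background correction the 2 h difference was -0.05 and the 12 h difference 0.18. The residual SD of Gdnf was 0.54, above that of 96.1% of features. Over all treated samples the difference was -0.39.

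Vgf, a precursor that BDNF itself can raise and whose peptides are released from dense-core granules, had 1 probe (NM_030997), well above background on every array. Untreated replicates 1 to 3 of Vgf were at 2.03, 2.37 and 2.41. The treated samples were at 2.00, 2.48 and 2.44 at 2 h and at 2.21, 2.53 and 2.25 at 6 h. They were at 2.04, 2.34 and 2.43 at 12 h and at 2.33, 2.37 and 1.99 at 24 h. The 5 groups covered nearly the same range, and replicate 1 was the lowest in 4 of them. The log2 differences were 0.04, 0.06, -0.00070 and -0.04, with an SE of 0.17, and the widest interval bound at any time was 0.42. The 5 group means of Vgf spanned 0.10, which is less than the mean SD of 0.21 within groups. Over the 12 treated samples the difference was 0.01 (exact permutation p = 0.899).

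**Figure D2:**
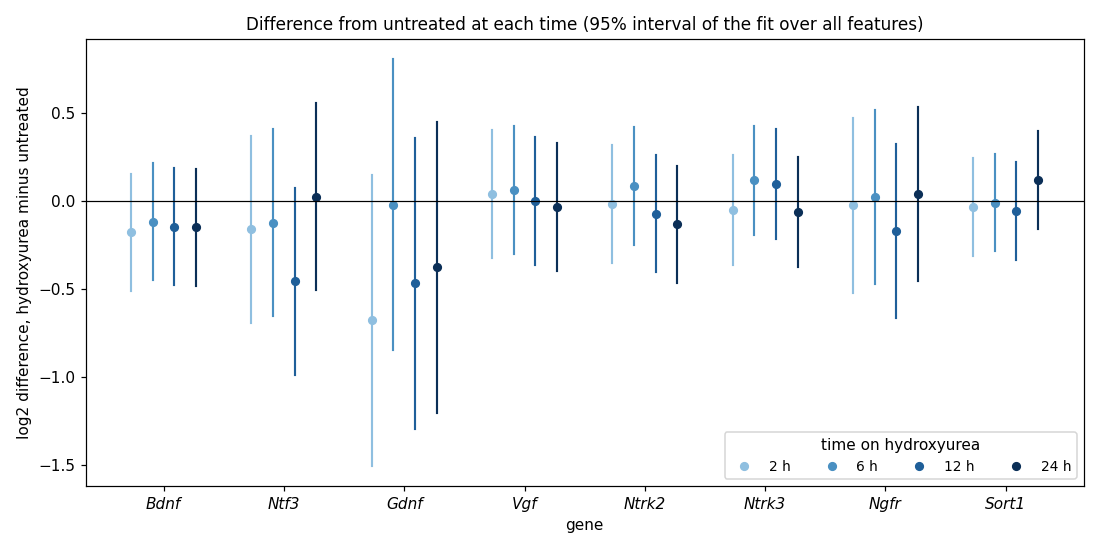
Log2 difference from untreated (vertical axis) for each of the 8 genes (horizontal axis) at 2, 6, 12 and 24 h, as points with the 95% interval of the limma fit over all 18110 features, 3 samples a group. All 32 intervals cross 0, and those of Gdnf, which was kept only through its untreated samples, are the widest and describe the fit only.

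Among the receptors, Ntrk2 was read by 3 probes, 2 of them assigned to NM_012731 and 1 to NM_001163168. The locus makes a full-length kinase receptor and shorter forms without the kinase, and the files do not say which of these each probe reads. The brightest, an NM_012731 probe that stands for the gene in the fit, gave 2.88, 3.01 and 2.75 in untreated replicates 1 to 3. It gave 2.81, 2.88 and 2.89 at 2 h, and 2.90, 2.85 and 3.13 at 6 h. It gave 2.91, 2.63 and 2.88 at 12 h, and 2.84, 2.36 and 3.03 at 24 h. All groups overlapped, and 24 h replicate 2 was the lowest of the 15 samples. The log2 differences were -0.02, 0.08, -0.07 and -0.14 (SE 0.16), and without 24 h replicate 2 the 24 h difference was 0.06. Over all treated samples the difference was -0.04 (exact permutation p = 0.752).

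The NM_001163168 probe of Ntrk2 ran differently across the samples. In untreated replicates 1 to 3 it was at 1.50, 1.26 and 1.27, at 2 h at 1.29, 1.28 and 1.02, and at 6 h at 1.49, 1.29 and 1.05. At 12 h it was at 1.46, 1.48 and 1.18, and at 24 h at 1.20, 1.73 and 1.19. Its highest sample, 24 h replicate 2, was the lowest of the brightest probe, and over the 15 samples the 2 probes had a Pearson r of -0.71 and a Spearman rho of -0.49. The remaining NM_012731 probe ranged from -0.40 to 0.30, with group means between -0.03 and 0.13. Its r was -0.44 with the brightest probe and 0.26 with the NM_001163168 probe. The probes share samples, arrays and scaling, so these values describe these arrays only. Neither probe separated any time from untreated, and their log2 differences lay between -0.16 and 0.03 at all 4 times.

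Ntrk3, which encodes the NT-3 receptor TrkC, was read by a probe for NM_001270656 and a dimmer one for NM_019248. The brighter probe gave 3.04, 2.96 and 2.84 in untreated replicates 1 to 3. It gave 3.10, 2.90 and 2.68 at 2 h and 2.90, 3.16 and 3.13 at 6 h. It gave 2.95, 2.96 and 3.20 at 12 h and 2.99, 2.61 and 3.04 at 24 h, where replicate 2 was again the lowest of all samples. The log2 differences were -0.05, 0.11, 0.09 and -0.07 (SE 0.14), with overlap in every group, and that over all treated samples was 0.02 (exact permutation p = 0.857). The NM_019248 probe gave 0.67, 0.61 and 0.78 untreated, and 0.51, 0.65 and 0.47 at 2 h, where 2 of the 3 samples lay below the untreated range. At 6, 12 and 24 h it lay between 0.53 and 0.83. Its 2 h difference was -0.14, with an interval of -0.37 to 0.08 and an unadjusted p of 0.186 in limma. The 2 probes had an r of -0.18 over the 15 samples.

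Ngfr encodes p75, which binds all neurotrophins and, with sortilin, their precursors. Its probe (NM_012610) has 10 spots and was well above background on every array. Untreated replicates 1 to 3 of Ngfr gave -4.49, -4.40 and -3.59, so that the untreated group held both the highest and the lowest of the 15 samples. The values were -4.34, -4.37 and -3.85 at 2 h and -4.15, -4.37 and -3.88 at 6 h. They were -4.26, -4.39 and -4.34 at 12 h and -3.89, -4.03 and -4.43 at 24 h. The 12 treated samples all lay inside the untreated range. The log2 differences were -0.03, 0.02, -0.17 and 0.04, with an SE of 0.23 (over all treated samples -0.04, exact permutation p = 0.837).

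Sort1 encodes sortilin, which carries pro-BDNF to the regulated secretory pathway besides its part in the p75 complex. Both of its probes are assigned to NM_031767 and were well above background on all 16 arrays. The brighter gave -0.83, -1.13 and -0.72 in untreated replicates 1 to 3, and -0.91, -0.95 and -0.93 at 2 h. It gave -0.86, -0.94 and -0.91 at 6 h, -1.13, -0.93 and -0.79 at 12 h, and -0.83, -0.58 and -0.92 at 24 h. Only 24 h replicate 2 lay above the untreated range, and none lay below it. The log2 differences were -0.04, -0.01, -0.06 and 0.12, with an SE of 0.13, and Sort1 had the smallest residual SD of the 8 genes, 0.15. The dimmer probe ranged from -2.06 to -1.39 and gave differences of -0.12, 0.00092, 0.06 and -0.05. The 2 probes had an r of 0.47 over the 15 samples.

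**Figure D3:**
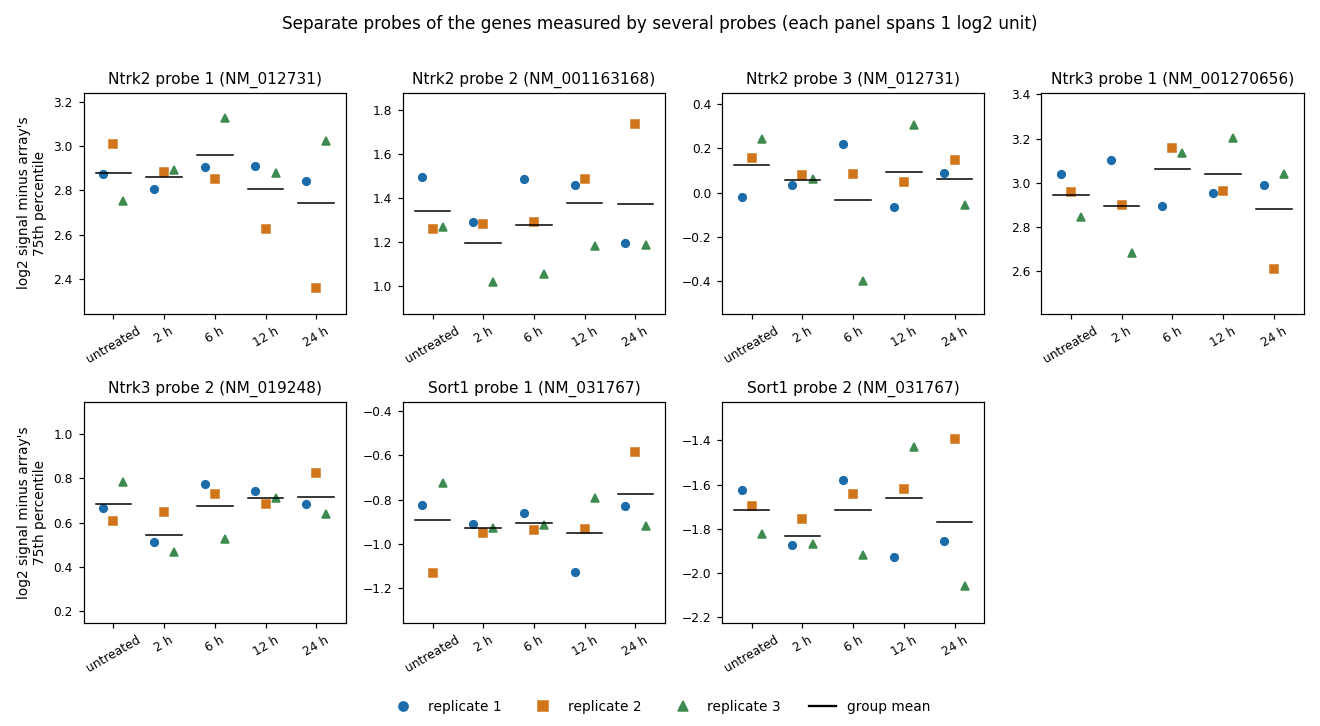
Level of each of the 7 probes of Ntrk2, Ntrk3 and Sort1 in each sample by time on hydroxyurea, as log2 of the processed signal minus the array's 75th percentile; points are samples by replicate number, bars are means of 3 samples, and panels span the same range. The 24 h replicate 2 sample is the lowest of the brightest Ntrk2 probe (2.36) and of the brighter Ntrk3 probe (2.61), and the highest of the NM_001163168 probe of Ntrk2 (1.73).

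Ordered by group mean, for each of the 8 genes all 4 pairs of neighbouring groups overlapped, with gaps no larger than the gene's mean SD within groups. The dimmer Ntrk3 probe had 1 gap, of 0.14, that was larger than its mean SD of 0.09. The 2 arrays of untreated replicate 1, of which the first had uneven spots, give a measure of technical error. Between them the tested probes of Bdnf, Ntf3, Vgf and Gdnf differed by -0.03, 0.01, -0.03 and -0.02, and those of Ngfr and Sort1 by -0.07 and 0.07. Those of Ntrk2 and Ntrk3 differed by -0.29 and -0.22 between the same arrays. In size this is larger than any of the 8 differences from untreated of these 2 genes. Those differences are between means of 3 samples and not between single arrays. The median size over all features was 0.11.

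The genes most like each of the 8 over the 15 samples were named by Pearson r among 10088 named genes (10089 for Gdnf) well above background on every array, as a description of these arrays, whose shared sample and array effects it includes. For Bdnf these were Nrn1 (r = 0.86) and Tbp (r = 0.86), for Ntf3 Anxa4 (r = 0.93) and Phyh (r = 0.93), and for Gdnf Cdc7 (r = 0.93) and Mier1 (r = 0.91). Vgf ran most like Cd83 (r = 0.93) and Prkcd (r = 0.92). Ntrk2 ran most like Cisd2 and Nkain3 (r = 0.88 for both), and the values were 0.75 and 0.50 without the 2 samples farthest from the median of Ntrk2, 24 h replicate 2 and 12 h replicate 2. The pairs for Ntrk3 were Uba3 (r = 0.95) and Rps6ka6 (r = 0.94), those for Ngfr Etv4 (r = 0.93) and Zbtb7c (r = 0.92), and those for Sort1 Nkiras2 (r = 0.91) and P4hb (r = 0.91).

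Of a list of 15 other genes of the family, its binding partners and p75 co-receptors, 14 were tested and 0 were called in any comparison. Over the 4 times 5 were higher and 9 lower, with a median of -0.01 against 0.0020 for all features. Sorcs3, a sortilin relative, was at -0.11. The probe of Ntf4, a further ligand of TrkB, was not well above background on any of the 16 arrays.

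The other lists of the pathway gave 0 called genes in every comparison too. Of the GDNF family ligands and receptors, 10 of 12 were tested, 4 higher and 6 lower over the 4 times (median -0.02), with the largest differences for Gfra4 (-0.31, SE 0.26, well above background in 7 of 15 samples) and Gdf15 (-0.30, SE 0.58). Of the enzymes that cut or store pro-neurotrophins and VGF, 16 of 20 were tested, 9 higher and 7 lower (median 0.0030). Scg2, a granule protein stored beside VGF, was at -0.16 (SE 0.11) and the protease gene Pcsk7 at -0.15 (SE 0.18). Of the signalling chain below the Trk receptors, 42 of 47 were tested, 19 higher and 23 lower (median -0.0030), led by the adaptor Crk (-0.30, SE 0.17) and the kinase Akt2 (0.19, SE 0.18). For p75 signalling all 19 were tested, 8 higher and 11 lower (median -0.01), led by the adaptor Traf6 (0.41, SE 0.25), with an untreated SD of 0.86 against 0.23 over the treated samples, and Arhgdia (-0.10, SE 0.13).

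Of the listed genes that BDNF or neuronal activity are known to raise, 25 of 27 were tested, 16 higher and 9 lower over the 4 times, with a median of 0.02 and 0 called. The neuropeptide gene Crh was at 0.39 (SE 0.25) and the immediate early gene Egr1 at -0.19 (SE 0.15). At 2, 6, 12 and 24 h the log2 difference of Crh was 0.59, 0.13, 0.17 and 0.68, and that of Egr1 was -0.27, -0.15, -0.29 and -0.05. Of the listed regulators of Bdnf transcription 15 of 16 were tested, 6 higher and 9 lower (median -0.02), led by Crtc1, a coactivator of CREB, at -0.14 (SE 0.11) and Usf1 at -0.13 (SE 0.14).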

How the data were processed

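Agilent Feature Extraction 11.5.1.1 (protocol GE1_1105_Oct12, design build rn4) made the deposited scanner files, per the file headers, and the intensity used is its background-subtracted signal, not scaled between arrays. The series table deposited by the authors holds a score per array: it matched the log signal less its mean over its SD, except that the columns of 24 h replicates 1 and 3 were exchanged with respect to the scanner files, whose labels were kept. Control spots and outlier spots were dropped, spots of a probe averaged, and 18758 probes matched to RefSeq genes by accession. Values were log2 signal minus the array's 75th percentile. The brightest probe of a gene was tested where some group had it well above background throughout, leaving 18110 features. The 2 arrays of untreated replicate 1 were averaged. limma 3.58.1 (R 4.3.3) was fitted over all 15 samples, two-sided, with Benjamini-Hochberg adjustment at 0.05, and tested on simulated data. Normexp, an alternative, used median spot signals, since the scanner files hold no mean signal column. The number of arrays limits the precision. Named were every probe of the 8 genes, the 2 largest of each pathway list (some items are not reported here) and the 2 genes most alike by r. Genes and lists were chosen with earlier results of these data known.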

Additional observations from a re-analysis of the deposited data

How the results depend on the processing

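Each count of called genes among the 8 stayed at 0 under all 35 alternatives (34 for the mean of the times and the F test, which 2 groups alone cannot give), which covered background correction, scaling, the deposited scores, filters, probe choice, slides, array weights, and each replicate left out in turn. At 2, 6 and 24 h, for 24 h against 2 h and for the F test, these alternatives also called 0 of all features. Few were called at 12 h and over the mean of the times. A count of 0 is therefore not particular to the 8 genes. Of 1666 values of single genes 1650 moved by less than 1 SD between replicates, 172 changed sign and 0 passed an adjusted p of 0.05. An unadjusted p under 0.05 in limma was reached by 12 of them, against 0 as reported. Ntf3 had 4 of these, at 12 h. Gdnf had 6 at 2 h and 1 each at 24 h and over the mean of the times. The smallest adjusted p, 0.474, was also for Gdnf, at 2 h with array quality weights (log2 difference -0.85). The values of Gdnf describe the fit and are no test, because it was kept only through its untreated samples. No value of Gdnf was given by a filter that asks for every array. At 2 h, 1 of the 8 genes in place of 0 had no overlap with untreated under quantile normalization, array median scaling, Z-scores and the authors' deposited scores. This gene was Gdnf in each, which was kept only through its untreated samples. Under the mean over the probes of a gene, Ntrk2 had no overlap, so that 1 replaced 0 at 2 h and at 24 h. As reported, 6.35% of all features had no overlap at 2 h and 2.94% at 24 h. The shares under these settings are not given here. Normexp put the median of all features at 12 h at 0.10 against 0.02, and gave 17 of the 172 sign changes. With a replicate block, 0 of the 8 genes and 0 of all 18110 features were called in any comparison. Ntf3 at 12 h was then -0.46 with an SE of 0.17 (adjusted p = 0.949). The numbers were not taken as pairing. The deviations of samples of the same number from their groups correlated at a median of 0.13 (19 of 30 pairs over 0.1). For samples of different numbers the median was -0.08 (11 of 60), and 7 of 15 samples had a best partner of their own number. Deviations within a group offset each other, so the medians are not independent. With the 24 h numbers of the deposited scores, a choice made after seeing the data, these values became 0.19 (24 of 30), -0.11 (6 of 60) and 13 of 15. Under that block 0 of the 8 genes were called, and at most 1 of all 18110 features in a comparison. Leaving out both arrays with uneven spots, also chosen after seeing the data, put Ntf3 at 12 h at -0.16 and Gdnf at 0.10. It called 0 of the 8 genes and 0 of all features. Gdnf was well above background on 11 of 16 arrays, and the other 7 genes on all 16. The fit's intervals reached about 0.28 (Sort1) to 0.83 (Gdnf, a description of the fit only) on either side of each difference.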

Other observations

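Among the 8 genes, some samples of the same replicate number lay on the same side of their groups. Ntf3 was highest in replicate 2 in 5 of 5 groups, and Gdnf in replicate 2 in 4 of 5. Vgf was lowest in replicate 1 in 4 of 5 groups, and in 5 of 5 when the 24 h replicates 1 and 3 take the numbers of the deposited scores. With those numbers Ngfr was highest in replicate 3 in 4 of 5 groups, against 3 of 5 with the scanner labels. For Bdnf, Ntrk2, Ntrk3 and Sort1 too, no number was highest or lowest in more than 3 of 5 groups with the scanner labels. The share of all features with such a pattern was not counted, so these counts are not shown to be particular to the 8 genes.

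The 24 h replicate 2 sample stood at an end of the range for 6 of the 7 probes of Ntrk2, Ntrk3 and Sort1, and for 8 of the 12 probes of the 8 genes: lowest for the brightest Ntrk2 probe (2.36) and the brighter Ntrk3 probe (2.61), and highest for the NM_001163168 probe of Ntrk2 (1.73), the dimmer Ntrk3 probe (0.83) and both Sort1 probes (-0.58 and -1.39). It was also the highest for Ntf3 (-1.84) and the lowest for Bdnf (-4.45). The share of all features for which this sample stood at an end was not counted, so these counts are not shown to be particular to the 8 genes. Its array quality weight, taken over all features, was 0.30, where a lower weight marks a noisier sample. That of 12 h replicate 3 was 0.17, and every other sample had 0.65 or more.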
